A study of Equus caballus with 34 samples.

Results

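In all, 6 genes of the vascular endothelial growth factor (VEGF) and platelet-derived growth factor (PDGF) systems were followed through the last stages of follicle growth in the mare. They were the ligands VEGFA and PDGFC, the VEGF receptors KDR and FLT1, and the co-receptors NRP1 and NRP2. The members were all non-control probes of these genes on the array, found by the gene name in the scanner files (LOC100033839 for VEGFA) or by the probe's description. This gave 43 of 43603 probes, with 10 for VEGFA, 3 for PDGFC, 11 for KDR, 12 for FLT1, 2 for NRP1 and 5 for NRP2. They stand for 6 of the 12013 genes that could be named on the array.

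The study profiled RNA from ovarian follicles of the horse (Equus caballus) on 34 one-colour Agilent arrays, 1 sample to an array. Granulosa cells (GC), the layer that lines the follicle's cavity, were separated from the theca wall (TW), the vascular layer around it. Follicles were taken when early in dominance (ED), late in dominance (LD) or close to ovulation (preovulatory, PO), with 5 GC ED, 5 GC LD and 5 GC PO arrays and 5 TW ED, 9 TW LD and 5 TW PO arrays. The labels give no treatment or genetic change for any group. The breed and age of the mares, and which GC and TW samples share a follicle, are not given in the sources used here. The design text calls the samples biological replicates and speaks of 5 per group, and all 9 TW LD arrays were used here because the labels do not mark 5 of them. These are bulk samples, in which fewer cells of a type and less RNA per cell cannot be told apart.

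Levels are log2 values relative to each array's 75th percentile, so 0 is the brightness of that percentile. Differences were tested with limma over all probes, and a call is an adjusted p under 0.05. The probe of a gene that was brightest over all 34 arrays stands for the gene, and levels of different probes are not set against each other. A group in which no array was well above background by the scanner's own test has only an upper bound, and the difference is then given as "at least" a fold. The number of arrays sets the precision of every value here.

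The layer labels were checked against marker lists. Of 9 granulosa markers, 9, 8 and 5 were higher in GC than in TW at ED, LD and PO, and of 9 theca markers 9, 9 and 7 were lower in GC. Of 14 endothelial markers, which mark the lining of blood vessels, 13 were lower in GC at each stage. Of these 14, 4 to 10 were well above background on a GC ED array, 5 to 8 on a GC LD array and 4 to 8 on a GC PO array. EMCN and TEK were so on no GC array, and EGFL7 was so on 5 of 5 arrays of each GC group. Some arrays stood apart from their group. GC LD 1 had a summed endothelial level of 0.78 on the log2 scale where the other GC arrays lay at -1.11 or below, and TW ED 3 and TW ED 5 had summed granulosa levels of 5.58 and 6.39. Summed theca levels were 6.09, 5.44, 5.41 and 5.11 in GC LD 1, GC LD 4, GC ED 4 and GC ED 1, and 3.29 to 4.73 in the remaining GC arrays. Leaving out GC LD 1, TW ED 3 and TW ED 5 together, an alternative used below, keeps GC LD 4, GC ED 4 and GC ED 1. One slide that held 4 TW arrays was noisier, with a coefficient of variation of repeated probes of 15.5 to 27.9%, against 4.58 to 8.24% on the other 30 arrays. GC and TW mostly lay on separate slides, and only 2 of the 10 slides held both, so layer and slide cannot be told apart for most arrays.

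**Figure D1:**
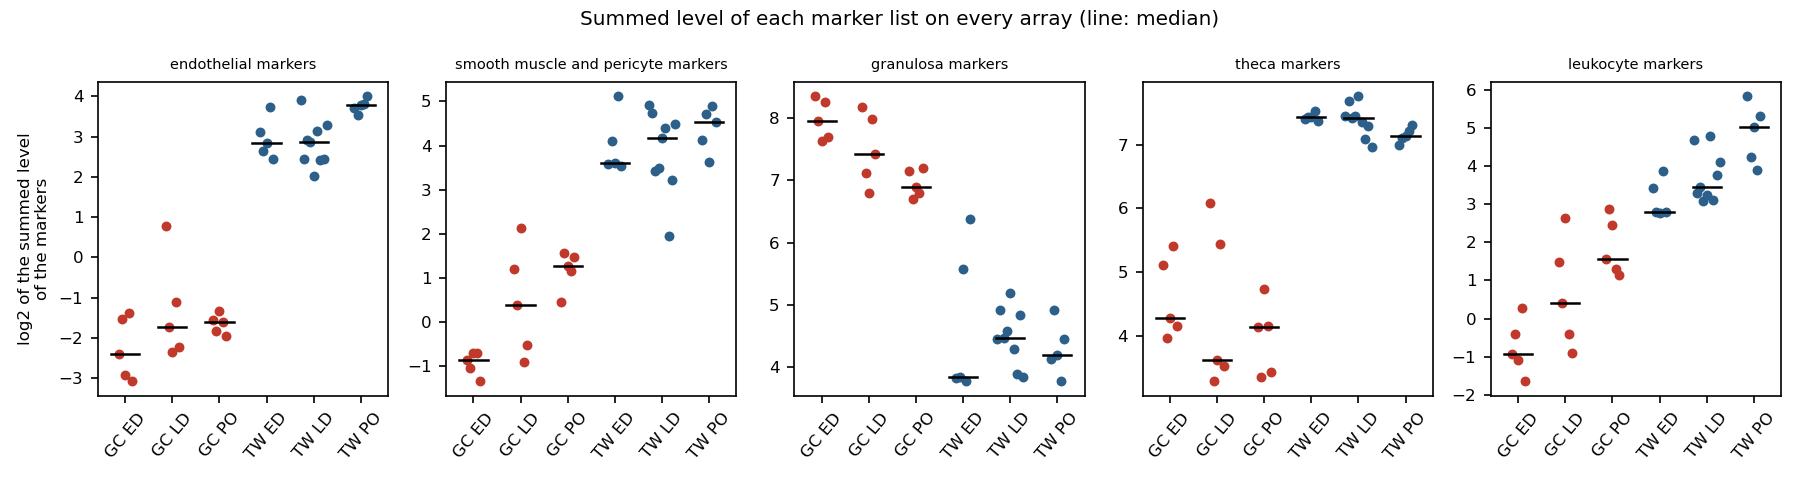
Summed level of 5 marker lists on each array (log2, relative to the array's 75th percentile), by layer and stage, with a line at each group's median. At each stage the medians of the endothelial, smooth muscle, theca and leukocyte lists are lower in GC than in TW, and the median of the granulosa list is higher in GC.

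VEGFA is a secreted growth factor that makes blood vessels sprout and leak. It acts on the receptor tyrosine kinases KDR (VEGFR2), which carries most of its growth signal in endothelial cells, and FLT1 (VEGFR1), which binds it tightly and signals weakly. NRP1 and NRP2 are neuropilins, membrane proteins that hold VEGF forms with a heparin-binding part next to the receptor and that also bind class 3 semaphorins. PDGFC is a secreted ligand of PDGF receptor alpha, a receptor of stromal and perivascular cells. In the follicle, vessels are confined to the theca until ovulation, when they grow into the granulosa layer as the corpus luteum forms.

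The probes decide which forms of each gene were read. Coordinates are those in the scanner files, and the sources used here do not name their genome build. All 10 VEGFA probes share a run of 34 bases, shown in capitals in the brightest probe (chr20:36143928-36143987, plus strand) and in another (chr20:36143903-36143962). That run codes for the heparin-binding part of the protein, so VEGFA forms without that part were not read. All 10 probes lie within 86 bases, so they overlap and are not separate evidence.
VEGFA A_69_P000902: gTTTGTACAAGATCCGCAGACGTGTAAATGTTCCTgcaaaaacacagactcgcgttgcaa
VEGFA A_69_P005165: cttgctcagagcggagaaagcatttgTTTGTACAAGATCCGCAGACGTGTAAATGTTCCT

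Both NRP1 probes lie near the end that codes for the C-terminus of the membrane protein (chr29:3742074-3742133 and chr29:3742114-3742173, plus strand) and share the 20 bases in capitals. Soluble NRP1, which lacks this end, was not read.
NRP1 A_69_P011972: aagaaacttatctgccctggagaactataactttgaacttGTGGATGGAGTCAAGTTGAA
NRP1 A_69_P011971: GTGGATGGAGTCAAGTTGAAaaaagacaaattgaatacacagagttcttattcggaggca

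The NRP2 probes code for the extracellular part. The brightest (placed in the files at chrUn:102556359-102556418, plus strand) has in capitals the 56 bases that all 5 share, so they are near copies and not separate evidence.
NRP2 A_69_P043066: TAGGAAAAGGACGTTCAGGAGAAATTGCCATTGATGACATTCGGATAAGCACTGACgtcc

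For KDR, 2 probes cross a gap in the files' coordinates (chr3:70881986-70883804 and chr3:70882083-70883806, plus strand) and share 29 bases, in capitals, that code for the cytoplasmic tail. They are shown because their left ends differ while the tail is common. Another 5 KDR probes, the brightest among them, lie within 64 bases and are near copies.
KDR A_69_P115881: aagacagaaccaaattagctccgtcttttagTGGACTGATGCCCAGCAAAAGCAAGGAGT
KDR A_69_P003501: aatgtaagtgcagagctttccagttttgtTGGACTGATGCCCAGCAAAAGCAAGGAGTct

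For FLT1, 2 overlapping tail probes (chr17:8001169-8001228 and chr17:8001173-8001232, minus strand) differ at 3 of their 56 common bases, in capitals. Counted from 1 at the 5′ end of A_69_P002473, the changes to A_69_P005141 are C10G, A37G and T44A. As tail probes they read the membrane form, and soluble FLT1, which lacks the tail, was not read. The 10 FLT1 tail probes lie within 140 bases, so they overlap and are not separate evidence.
FLT1 A_69_P002473: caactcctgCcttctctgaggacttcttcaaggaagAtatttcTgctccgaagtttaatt
FLT1 A_69_P005141: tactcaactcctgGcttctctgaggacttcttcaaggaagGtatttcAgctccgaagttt

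Across the stages, NRP1 rose and PDGFC fell in granulosa cells. In the theca wall PDGFC fell and NRP2 rose, by calls that were each lost under some other settings. The NRP2 difference turned sign with normexp, another background correction. VEGFA, KDR and FLT1 had no called stage change in any layer and probe tested. Between the layers, VEGFA was called higher in GC at ED and PO but not at LD, where it was called with other scalings. Its ED call was lost on leaving out single arrays. KDR, FLT1 and NRP2 were lower in GC, though FLT1 and NRP2 at ED turned sign with normexp. The FLT1 calls at LD and PO were lost under several settings. NRP1 and PDGFC changed sides with stage, and their PO calls and the PDGFC call at ED were lost on leaving out single arrays. From ED to PO in GC, 1 of the 4 genes tested was higher and 1 lower, where 23.5% and 21.5% of all probes were called higher and lower. From LD to PO in GC the count was again 1 higher and 1 lower of 4, with 7.26% and 9.68% of all probes. In TW at PO against LD, 1 of the 6 genes was higher and 0 lower (9.6% and 7.23% of all probes), and against ED 0 were higher and 1 lower (15% and 11.9% of all probes). These counts are too small to set apart from the background shares.

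From ED to LD no member was called in either layer, at an adjusted p from limma, and 1 gene in each layer had an unadjusted p under 0.05. Among all probes 0.00308% were called in GC and 0.0371% in TW, while 5151 and 5349 probes had an unadjusted p under 0.05. Between layers, 2 of 6 were higher and 4 lower in GC at ED, where 14.4% and 21.1% of all probes were. At LD 0 were higher and 3 lower, where 12.2% and 19.9% of all probes were, and 3 members had an unadjusted p under 0.05. At PO 2 were higher and 4 lower, where 21.1% and 28.5% of all probes were. The test of the stage change in GC against that in TW (the interaction) called 3 of 6 genes for PO against ED (29.8% of all probes) and 4 of 6 for PO against LD (19.8% of all probes). For LD against ED it called 0 of 6 (0.0139% of all probes), with 1 member and 2877 probes at an unadjusted p under 0.05. The median over the 6 genes of GC minus TW was -2.10, -0.87 and -1.31 at ED, LD and PO, beside -0.07, -0.05 and -0.22 over all probes. With median centring in place of the 75th percentile those medians over all probes were 0.44, 0.41 and 0.56, and 70.8, 72.2 and 73.7% of all called probes were higher in GC, against 40.5, 38.1 and 42.5%, while no member changed direction. Members and lists were chosen with earlier results of these arrays known, so these shares describe them and single nothing out.

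**Figure D2:**
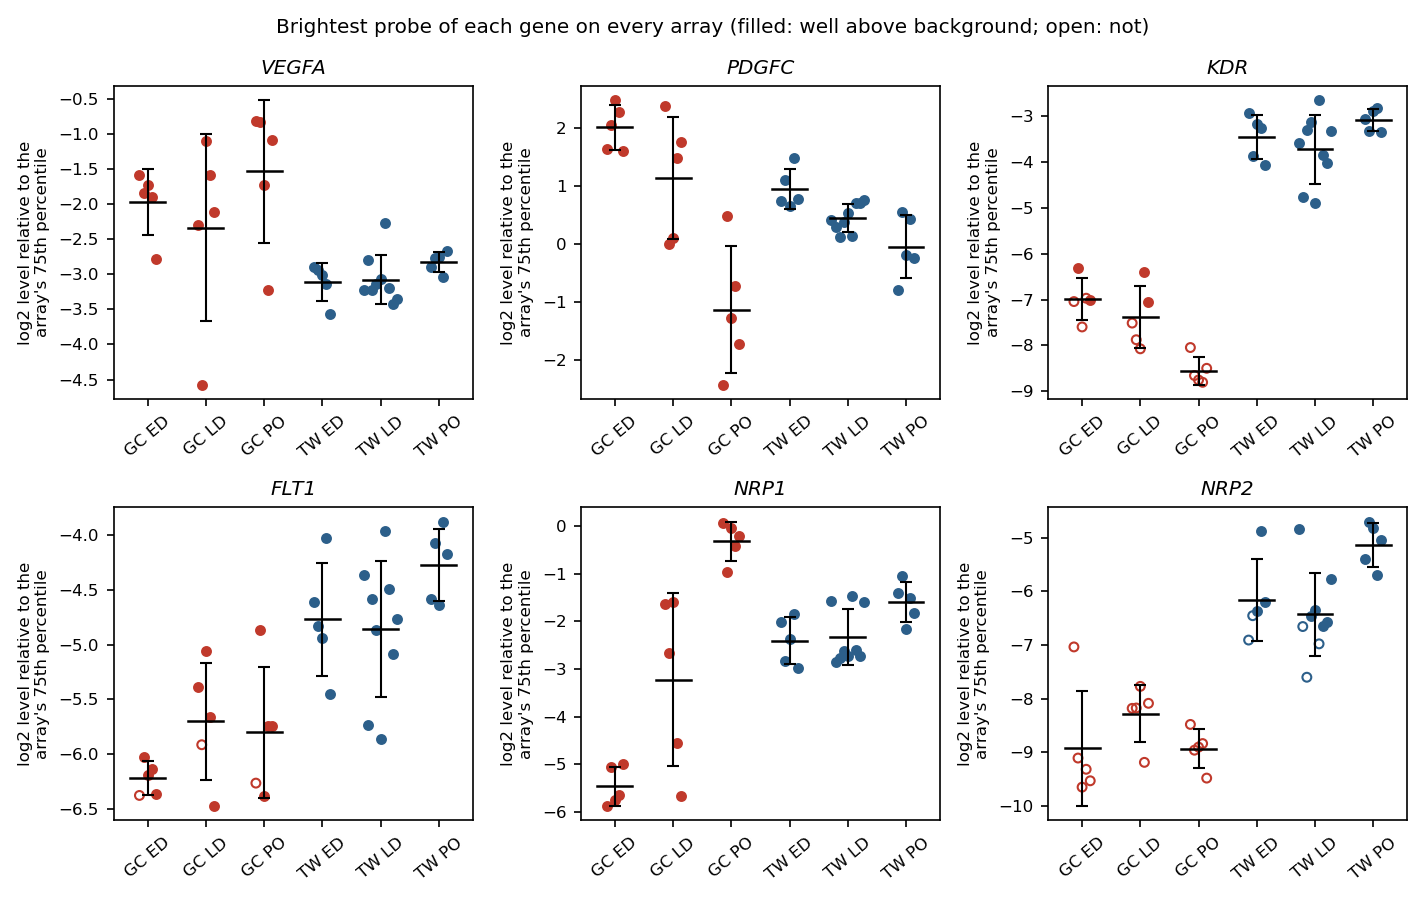
Log2 level of the brightest probe of each of the 6 genes on every array, by layer and stage. Filled points were well above background and open points were not; lines are group means and bars 1 SD. NRP1 climbs and PDGFC falls across the GC groups. VEGFA has higher means in GC, with arrays that overlap with TW at LD and PO, and its LD difference was not called on this scale but was with other scalings. KDR, FLT1 and NRP2 are higher in TW, FLT1 and NRP2 at ED not so with normexp.

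VEGFA, the ligand that starts the pathway, was well above background on every array. In GC ED arrays 1 to 5 it had log2 levels of -1.59, -1.84, -1.73, -1.90 and -2.78. In GC LD arrays they were -2.30, -4.57, -1.10, -1.59 and -2.12, and in GC PO arrays -0.81, -0.83, -1.72, -3.22 and -1.08. The stages overlapped in GC, and the arrays spread more at LD and PO than at ED, with GC LD 2 and GC PO 4 low.

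In TW ED arrays VEGFA had log2 levels of -2.89, -2.94, -3.01, -3.14 and -3.56. The 9 TW LD arrays ran between -3.42 and -2.27 with a median of -3.20, and the TW PO arrays had -2.89, -2.78, -2.76, -3.03 and -2.66. TW arrays were thus close together at all stages. Ordered by mean level, the groups ran GC PO at -1.53 ± 1.01, GC ED at -1.97 ± 0.47, GC LD at -2.34 ± 1.34, TW PO at -2.82 ± 0.14, TW LD at -3.08 ± 0.35 and TW ED at -3.11 ± 0.27 (SD, n = 5, and n = 9 for TW LD). Each group overlapped with the next in that order.

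No VEGFA stage difference was called. In GC the changes were -0.37 ± 0.59 for LD minus ED (SE; limma adjusted p = 0.779), 0.80 for PO minus LD (adjusted p = 0.357) and 0.44 for PO minus ED (adjusted p = 0.573). The TW changes were 0.03, 0.25 and 0.29 in the same order, with adjusted p-values of 0.948, 0.311 and 0.283. None of the 10 probes was called in any of the 6 stage comparisons. The interaction was not called on any of them either.

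VEGFA was higher in GC than in TW at ED and at PO. At ED the difference was 1.14 ± 0.43 on the log2 scale (SE), a 2.21-fold higher level in GC (limma adjusted p = 0.0368), with 5 of 5 GC arrays above every TW array and all 10 probes called (1.14 to 1.56). The ED call was lost on leaving out any 1 of GC ED 1 to 4 or TW ED 3 to 5 (limma adjusted p = 0.0525 to 0.0862). It was also lost without the noisy slide (adjusted p = 0.0654), and without GC LD 1, TW ED 3 and TW ED 5 together (adjusted p = 0.141). At LD the difference was 0.74 ± 0.38 (adjusted p = 0.137) and was not called, and 4 of 10 probes passed. At PO it was 1.29 ± 0.43, or 2.45-fold (adjusted p = 0.0132), with 4 of 5 GC arrays above every TW array and again all 10 probes called (1.29 to 1.60). Without GC LD 2, the lowest array, VEGFA at LD was 1.30 higher in GC (adjusted p = 0.00161), and with quantile scaling it was called on all arrays (adjusted p = 0.0141). On the 2 slides that held both layers, GC minus TW at LD was 0.50 and 1.83.

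PDGFC, the second ligand, was among the brighter signals. Its 3 probes lie at chr2:62864971-62866079 in the files' coordinates. In GC ED arrays it had log2 levels of 1.65, 2.06, 2.49, 2.29 and 1.61, in GC LD arrays 2.39, 0.01, 0.11, 1.48 and 1.76, and in GC PO arrays -2.43, 0.49, -1.28, -0.72 and -1.73. The GC LD arrays split, with GC LD 2 and 3 near 0, and every GC PO array lay below every GC ED array.

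PDGFC in TW ED arrays had log2 levels of 0.75, 1.12, 0.65, 1.49 and 0.79. TW LD arrays ran between 0.13 and 0.76 with a median of 0.42, and TW PO arrays had -0.78, 0.55, -0.19, 0.43 and -0.24. Every TW PO array lay below every TW ED array. By mean level the order was GC ED at 2.02 ± 0.39, GC LD at 1.15 ± 1.05, TW ED at 0.96 ± 0.35, TW LD at 0.45 ± 0.24, TW PO at -0.05 ± 0.54 and GC PO at -1.13 ± 1.10 (SD). Neighbours in that order overlapped throughout, while GC ED and TW ED, which are not neighbours, did not.

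PDGFC fell in both layers by PO. In GC the log2 difference of PO against ED was -3.15 ± 0.54, an 8.91-fold lower level (limma adjusted p = 0.000504), on all 3 probes and on 5 of 5 slides, where the differences ran between -4.08 and -1.57. Against LD the difference was -2.28 ± 0.54, or 4.87-fold (adjusted p = 0.0142), and LD against ED was not called (-0.87, adjusted p = 0.433). In TW the level fell by 1.01 ± 0.23 at PO against ED, or 2.01-fold (adjusted p = 0.00497), on all 3 probes and on 5 of 5 slides (-1.53 to -0.57), and the call was lost with all 34 arrays in 1 fit (adjusted p = 0.0847). In that comparison 11 of 12 leukocyte and 6 of 14 endothelial markers were higher in TW PO, where 15% of all probes were. The part of these markers in the PDGFC fall was not tested. TW PO against LD, at -0.50, was not called (adjusted p = 0.0974), and it was called without TW PO 2 (adjusted p = 0.0373).

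The fall of PDGFC was steeper in GC. The GC change minus the TW change was -2.15 ± 0.57 for PO against ED (limma adjusted p = 0.00589) and -1.78 ± 0.54 for PO against LD (adjusted p = 0.0197), on 3 of 3 probes each. The PO against LD value was not called without GC LD 1 (adjusted p = 0.0515) or without GC LD 1, TW ED 3 and TW ED 5 together (adjusted p = 0.063). With that, the layer difference turned over in sign, by calls that did not hold under all settings. GC minus TW for PDGFC was 1.06 ± 0.41 at ED, 2.09-fold higher in GC (adjusted p = 0.0404), and -1.09 ± 0.41 at PO, 2.12-fold lower in GC (adjusted p = 0.0266). Each was called on 1 of 3 probes, and each was lost on leaving out single arrays. At ED these were GC ED 2, 3 or 4 and TW ED 1, 2, 3 or 5 (adjusted p = 0.0534 to 0.0957, and 0.137 without GC LD 1, TW ED 3 and TW ED 5 together), and at PO they were GC PO 1 or 5 and TW PO 2 or 4 (adjusted p = 0.0691 to 0.119). With median centring the PO difference was -0.31 (limma adjusted p = 0.52). The PO call was also lost with quantile scaling (adjusted p = 0.0523), with normexp (0.0784), in the deposited table (0.0817) and without the noisy slide (0.0772). The ED call was also lost with normexp (adjusted p = 0.059).

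At LD the PDGFC difference of 0.70 was not called (adjusted p = 0.141), and it was called without GC LD 2 (adjusted p = 0.0412) or GC LD 3 (adjusted p = 0.0439). The 2 slides with both layers gave 0.78 and 2.10 at LD. Granulosa markers moved the same way as PDGFC in GC: 6 of 9 were lower at PO than at ED, with summed log2 levels of 6.71 to 7.20 in GC PO against 7.63 to 8.36 in GC ED and each of the 9 well above background on some array of both groups. Of all probes 21.5% were lower in that comparison, and the part of the granulosa markers in the fall of PDGFC was not tested.

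**Figure D3:**
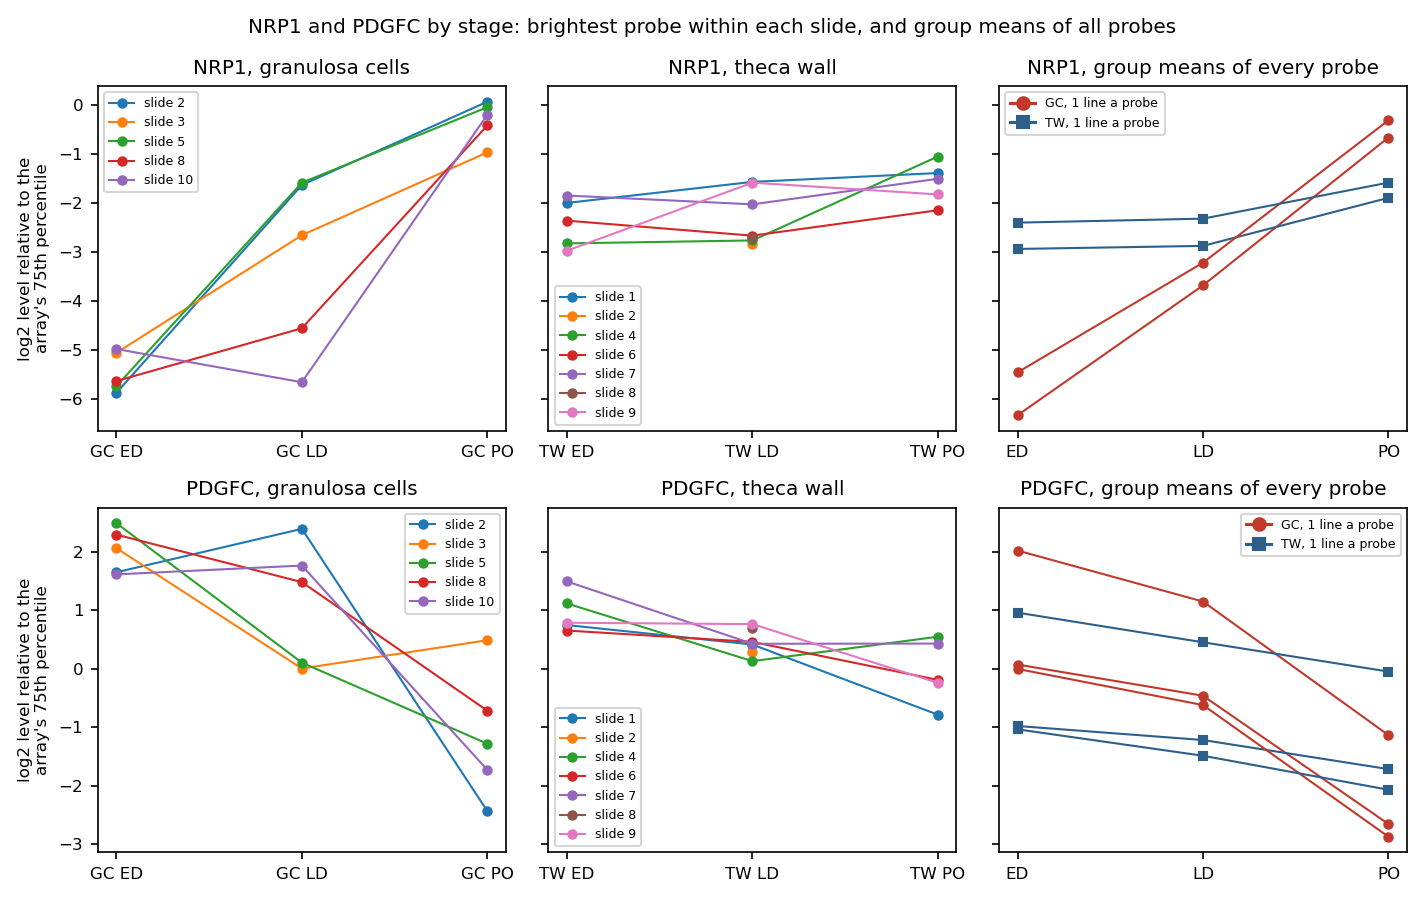
NRP1 (top) and PDGFC (bottom) by stage, in log2 levels. The left and middle panels join the arrays of 1 slide in GC and in TW, with a slide's mean where it held a pair of TW LD arrays and lone points where a slide held TW LD only; the right panel gives group means of every probe. On all 5 GC slides NRP1 is higher and PDGFC lower at PO than at ED.

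KDR, the main signalling receptor for VEGFA, was near background in GC. In TW ED arrays its log2 levels were -2.93, -3.87, -3.17, -3.25 and -4.07. TW LD arrays ran between -4.89 and -2.65 with a median of -3.59, and TW PO arrays had -3.05, -3.31, -2.89, -2.82 and -3.34. All 19 were well above background, and the stages overlapped.

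In GC ED arrays KDR had -7.04, -6.31, -7.60, -6.97 and -7.02, of which arrays 2 and 5 were well above background. GC LD arrays had -7.51, -7.88, -8.07, -6.40 and -7.04, with arrays 4 and 5 well above background. GC PO arrays had -8.05, -8.66, -8.75, -8.80 and -8.50, none of them well above background. No GC array reached any TW array. By mean the order was TW PO at -3.08 ± 0.24, TW ED at -3.46 ± 0.49 and TW LD at -3.72 ± 0.75 (SD), each overlapping with the next, with the GC groups below and unordered because most of their arrays were at background.

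KDR was lower in GC at every stage and on 11 of 11 probes. At ED the log2 difference was -3.53 ± 0.35 (limma adjusted p = 2.48e-09) and at LD -3.66 ± 0.31 (adjusted p = 1.24e-10). No fold is given for these, since 2 of 5 GC arrays were well above background at each stage. At PO it was -5.47 ± 0.35, at least 13.7-fold (adjusted p = 4.83e-13). With normexp the differences were -0.42, -0.90 and -1.03 at ED, LD and PO, of which the ED value was not called (adjusted p = 0.341). In the deposited table they were -1.40, -1.28 and -1.88, all called. Over the 11 probes the differences ran between -5.47 and -2.31 at ED, -4.51 and -1.49 at LD, and -6.02 and -1.67 at PO. On the 2 slides with both layers the LD differences were -2.74 and -2.38.

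Of the 2 gap-crossing tail probes printed above, A_69_P115881 was lower in GC by at least 2.33-fold, 1.52-fold and 3.58-fold at ED, LD and PO. Probe A_69_P003501 had a log2 difference of -2.31 at ED, with 1 of 5 GC arrays well above background, and was lower in GC by at least 1.04-fold at LD and 1.66-fold at PO. All probes thus gave the same direction, and those of the outer part of the receptor (4 probes, chr3:70851588-70851958), dim in TW with group means of -7.46 to -6.20, were among those called.

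No KDR stage change was called in TW. The differences were -0.27 for LD minus ED (limma adjusted p = 0.738), 0.64 for PO minus LD (adjusted p = 0.161) and 0.38 for PO minus ED (adjusted p = 0.455). In GC too few arrays were above background to test stages. The interaction was called on the brightest probe alone, at -1.81 for PO against LD (adjusted p = 0.00708) and -1.94 for PO against ED (adjusted p = 0.004), where the GC side is a difference between values mostly at background. Neither was called with normexp or in the deposited table.

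FLT1, the high-affinity VEGFA receptor, was also lower in GC, by less. In TW ED arrays its log2 levels were -4.62, -4.83, -4.94, -4.02 and -5.45. TW LD arrays ran between -5.86 and -3.96 with a median of -4.77, and TW PO arrays had -4.58, -4.08, -4.64, -3.88 and -4.17. In GC ED arrays FLT1 had -6.38, -6.02, -6.19, -6.13 and -6.36, in GC LD arrays -5.39, -5.91, -5.06, -5.66 and -6.47, and in GC PO arrays -6.26, -4.87, -6.38, -5.75 and -5.74.

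GC ED 1, GC LD 2 and GC PO 1 were not well above background for FLT1, and the other 12 GC arrays were. At ED and at PO every GC array lay below every TW array, while the layers overlapped at LD. By mean the order was TW PO at -4.27 ± 0.33, TW ED at -4.77 ± 0.52, TW LD at -4.86 ± 0.62, GC LD at -5.70 ± 0.54, GC PO at -5.80 ± 0.60 and GC ED at -6.22 ± 0.15 (SD), each overlapping with its neighbour.

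FLT1 was lower in GC than in TW at ED, with a log2 difference of -1.44 ± 0.32, or 2.72-fold (limma adjusted p = 0.000625), and at PO, with -1.53 ± 0.32, or 2.89-fold (adjusted p = 0.000234), on 12 of 12 probes each. At LD the difference was -0.84 ± 0.28, or 1.79-fold (adjusted p = 0.0219), on 11 of 12 probes. That LD call was lost without GC LD 2 (adjusted p = 0.0529), GC LD 5 (adjusted p = 0.0981) or the noisy slide (adjusted p = 0.068), with quantile scaling, median centring or normexp (-0.20, -0.38 and -0.33), and in the deposited table (-0.18). The 2 slides with both layers gave -0.57 and 0.34. The direction of the ED difference also rested on the background correction: with normexp it was 0.15 and not called. At PO the call was lost with quantile scaling (-0.53, adjusted p = 0.0853), with normexp (-0.20, adjusted p = 0.705) and in the deposited table (-0.34, adjusted p = 0.118).

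The 2 FLT1 probes that differ at 3 bases gave like differences. A_69_P002473 differed by -1.53, -0.96 and -1.53 at ED, LD and PO (limma adjusted p = 0.00112, 0.0191 and 0.000799). A_69_P005141 differed by -1.22, -0.66 and -1.16 (adjusted p = 0.00254, 0.066 and 0.00291), so its LD difference was not called. The kinase-domain pair (chr17:8009027-8010755), not well above background on any GC ED array, was lower in GC at ED by at least 1.79-fold and 2.07-fold. No FLT1 stage change was called, on 4 probes in GC and 12 in TW.

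The receptors and the vessel markers stood on the same side. The summed endothelial level was -3.08 to -1.39 in GC ED, -2.35 to 0.78 in GC LD and -1.94 to -1.32 in GC PO, against 2.44 to 3.73 in TW ED, 2.03 to 3.90 in TW LD and 3.52 to 4.01 in TW PO. The part of vessel cells in the KDR, FLT1 and NRP2 differences was not tested. In TW at PO against LD, 7 of 14 endothelial markers were higher, where 9.6% of all probes were. Their median was 0.99 beside 0.03 over all probes, and with the slide as a block 0 of these markers were called.

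**Figure D4:**
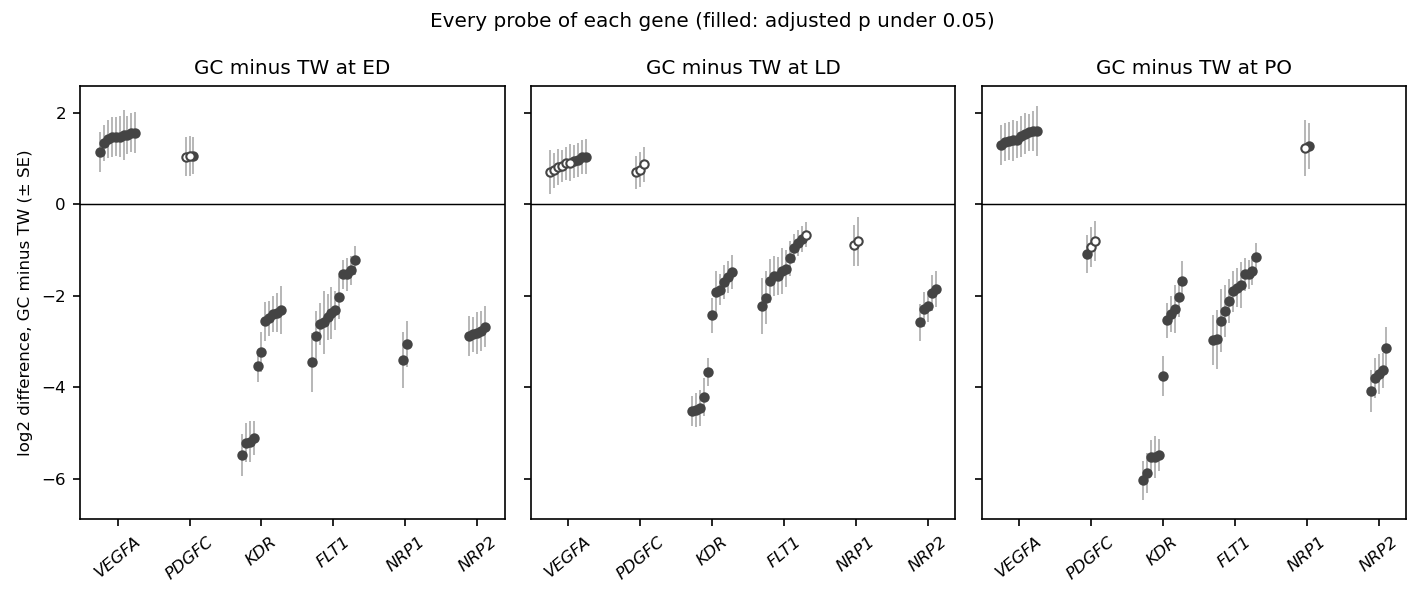
Log2 difference GC minus TW of every probe of the 6 genes at ED, LD and PO, with bars of 1 SE; filled points have an adjusted p under 0.05. VEGFA probes lie to the positive side, KDR, FLT1 and NRP2 probes to the negative side at all stages (with normexp FLT1 and NRP2 at ED turned sign), and NRP1 moves from negative at ED to positive at PO.

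NRP1, a co-receptor for VEGF and semaphorins, had the largest called stage change of the 6 brightest probes. In GC ED arrays its log2 levels were -5.88, -5.06, -5.74, -5.64 and -4.99. GC LD arrays had -1.64, -2.66, -1.59, -4.56 and -5.66, and GC PO arrays 0.06, -0.97, -0.05, -0.42 and -0.20. Every GC PO array lay above every GC LD and GC ED array, and the GC LD arrays were split, with arrays 4 and 5 near the ED level.

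In TW the range was narrow. TW ED arrays had NRP1 log2 levels of -2.0, -2.83, -2.37, -1.85 and -2.98, TW LD arrays ran between -2.85 and -1.47 with a median of -2.61, and TW PO arrays had -1.39, -1.06, -2.15, -1.51 and -1.83. By mean the order was GC PO at -0.32 ± 0.41, TW PO at -1.59 ± 0.42, TW LD at -2.33 ± 0.59, TW ED at -2.41 ± 0.49, GC LD at -3.22 ± 1.82 and GC ED at -5.46 ± 0.41 (SD). GC PO stood clear of TW PO, and every later neighbour in the order overlapped with the next.

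NRP1 rose in GC by 5.15 ± 0.65 on the log2 scale at PO against ED, a 35.4-fold higher level (limma adjusted p = 0.000204), on both probes and on 5 of 5 slides (4.09 to 5.94). With normexp it was smaller, at 2.95, and still called. Over the 15 GC arrays left out in turn the adjusted p ran between 3.36e-05 and 0.000911. Against LD the rise was 2.91 ± 0.65, or 7.50-fold (adjusted p = 0.0114), again on 5 of 5 slides (1.54 to 5.46). The second probe, A_69_P011971, gave 5.67 against ED (adjusted p = 0.000252) and 3.02 against LD (adjusted p = 0.0258). LD against ED, at 2.24 ± 0.65, was not called (adjusted p = 0.183), and without GC LD 5 it was 2.85 (adjusted p = 0.0098).

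In TW the NRP1 differences were smaller: 0.08 for LD minus ED (limma adjusted p = 0.924), 0.74 ± 0.29 for PO minus LD (adjusted p = 0.0799) and 0.82 ± 0.32 for PO minus ED (adjusted p = 0.0677). None was called on the brightest probe. A_69_P011971 was called for both, at 0.98 (adjusted p = 0.0159) and 1.04 (adjusted p = 0.0120). The brightest probe was called at PO against LD without TW LD 1, 6 or 9 (adjusted p = 0.0419, 0.0335 and 0.0473) and at PO against ED without TW LD 6 or TW ED 4 (adjusted p = 0.0497 and 0.0461).

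The NRP1 rise was larger in GC than in TW by 4.33 ± 0.72 for PO against ED (limma adjusted p = 8.99e-05, 2 of 2 probes), and by 2.31 with normexp. For PO against LD it was larger by 2.17 ± 0.67 (adjusted p = 0.0223, 1 of 2 probes), and this was not called without GC LD 4 (adjusted p = 0.0574) or GC LD 5 (adjusted p = 0.0528). Between layers NRP1 was lower in GC at ED, with a difference of -3.06 ± 0.51, or 8.32-fold (adjusted p = 1.48e-05, both probes). That was -1.17 with normexp and -1.84 in the deposited table, both called. At PO it was higher in GC by 1.27 ± 0.51, or 2.42-fold (adjusted p = 0.0369), with 5 of 5 GC arrays above every TW array. The PO call was lost without GC PO 1, 3, 4 or 5 or TW PO 3, 4 or 5 (adjusted p = 0.0505 to 0.0844) or without the noisy slide (adjusted p = 0.0585), and the second probe, at 1.23, was not called (adjusted p = 0.0932).

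At LD the NRP1 difference was -0.90 and not called (adjusted p = 0.126). It was called without GC LD 1 (-1.30, adjusted p = 0.0283) or GC LD 3 (-1.31, adjusted p = 0.0223), or without GC LD 1, TW ED 3 and TW ED 5 together (adjusted p = 0.0341), and the 2 slides with both layers gave -1.83 and 1.21. Markers of other cells moved with the NRP1 rise in GC in part. Leukocyte markers were higher at PO than at ED for 6 of 12 and lower for 1, with summed log2 levels of 1.15 to 2.87 in GC PO against -1.64 to 0.28 in GC ED, and TYROBP was not well above background on any GC ED array. Smooth muscle and pericyte markers were higher for 4 of 8 and lower for 1, with 0.47 to 1.57 in GC PO against -1.34 to -0.69 in GC ED. CNN1 and DES were each well above background on 0 of 5 GC ED and 5 of 5 GC PO arrays. KCNJ8 went the other way, from 5 of 5 to 3 of 5, and MYH11 was not well above background on any GC array. Of 8 endothelial markers tested 1 was higher, and of all probes 23.5% were higher and 21.5% lower in GC PO than in GC ED. The part of these cells in the NRP1 rise was not tested.

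NRP2, the co-receptor best known in lymphatic vessels and veins, was not well above background on any GC array, with log2 levels between -9.65 and -7.04. In TW ED arrays it had -6.91, -6.45, -6.38, -4.88 and -6.20, of which arrays 1 and 2 were not well above background. TW LD arrays ran between -7.60 and -4.84 with a median of -6.56, and 6 of 9 were well above background. TW PO arrays had -5.40, -4.70, -4.82, -5.69 and -5.05, all well above background. The TW PO arrays sat toward the upper end of the other TW groups and overlapped with both.

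By mean the NRP2 order was TW PO at -5.13 ± 0.41, TW ED at -6.17 ± 0.76 and TW LD at -6.43 ± 0.77 (SD), with the GC groups below, unordered because they were at background. NRP2 was higher in TW PO than in TW LD by 1.30 ± 0.37, or 2.46-fold (limma adjusted p = 0.0248), on 5 of 5 probes. The call was lost without TW PO 3 (adjusted p = 0.0611) or TW PO 5 (adjusted p = 0.0669), and with slide as a block (adjusted p = 0.103) or quantile scaling (adjusted p = 0.108) and in the deposited table (adjusted p = 0.194), and with normexp the difference was -0.19. PO against ED, at 1.03 ± 0.42, was not called (adjusted p = 0.0739), and it was called without TW LD 1 (adjusted p = 0.0345) or TW ED 4 (adjusted p = 0.0198). Markers of other cells were also higher in TW at PO against LD: the endothelial ones as given above, 3 of 11 smooth muscle and pericyte markers, and 11 of 12 leukocyte markers. The last had summed log2 levels of 3.89 to 5.84 in TW PO against 3.08 to 4.77 in TW LD. Over the alternatives the last 2 counts were 0 to 3 and 2 to 11, and 9.6% of all probes were higher. The part of these cells in the NRP2 rise was not tested.

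NRP2 was lower in GC than in TW by at least 1.82-fold at ED (limma adjusted p = 7.72e-06), 1.21-fold at LD (adjusted p = 0.000337) and 3.31-fold at PO (adjusted p = 3.19e-08), on 5 of 5 probes each. With normexp the ED difference was 0.33, and none of the 3 was called. The interaction for PO against LD, -1.95 (adjusted p = 0.0179, 1 of 5 probes), again had its GC side at background and was 0.16 with normexp.

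The rest of the ligand and receptor families was read from a list of 7 ligands (VEGFB, VEGFC, VEGFD, PGF, PDGFA, PDGFB and PDGFD) and of receptors, of which PDGFRA and PDGFRB were on the array. In GC from ED to PO, 1 of 6 ligands tested was higher and 1 lower, where 23.5% and 21.5% of all probes were. Their median was 0.15 beside 0.09 over all probes. Over the alternatives 0 to 2 of these ligands were higher and 0 to 1 lower, so the calls below did not hold under all settings. PDGFD, a ligand of PDGF receptor beta, was at least 6.66-fold higher (limma adjusted p = 0.0139), with 5 of 5 GC PO arrays and 0 of 5 GC ED arrays well above background. PGF, a FLT1 ligand, had a log2 difference of -1.77, or 3.41-fold lower (adjusted p = 0.0386).

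In TW, PDGFB, which recruits pericytes, was 1.89 higher at PO than at LD (limma adjusted p = 0.0178) and 1.79 higher than at ED (adjusted p = 0.0252), and the first turned sign with normexp. PDGFB was well above background on 1 of 5 TW ED and 4 of 9 TW LD arrays, so these sizes are not exact. PDGFA was at least 1.27-fold higher at PO than at ED (adjusted p = 0.0499). PDGFRA, the receptor that PDGFC binds, was 1.38 higher at PO than at ED, or 2.61-fold (adjusted p = 0.00473). So in TW at PO PDGFRA was higher where its ligand PDGFC was lower, by calls that did not hold under all settings. Over the alternatives 0 to 2 of the listed ligands were higher and 0 to 1 lower in TW at PO against ED. Against LD 0 to 1 were higher and 0 to 1 lower. Of the listed receptors 0 to 1 were higher at PO against ED. No stage difference of VEGFB or VEGFC was called in TW, where their group means lay between 0.84 and 1.61.

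PDGFRA was lower in GC, with log2 differences of -6.09 at ED (limma adjusted p = 6.15e-10), -5.86 at LD (adjusted p = 1.2e-10) and -5.79 at PO (adjusted p = 1.1e-09), with 1, 1 and 3 of 5 GC arrays well above background. PDGFRB was lower in GC too, with -0.78 at LD (adjusted p = 0.00389) and -0.58 at PO (adjusted p = 0.0427), and the PO sign turned with quantile scaling, with median centring and in the deposited table. The count of listed receptors lower in GC was 1 to 2 over the alternatives at LD and at PO.

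VEGFC, a ligand of the lymphatic receptor, was lower in GC at ED, with a log2 difference of -2.40 (limma adjusted p = 0.00265), where its mean was -1.50 ± 0.54 in GC against 0.90 ± 0.38 in TW (SD, n = 5 each; limma). VEGFD was higher in GC by at least 4.93-fold at ED (adjusted p = 0.00121) and at least 2.56-fold at PO (adjusted p = 0.00457). PDGFD was lower in GC at ED, by at least 15.2-fold (adjusted p = 9.02e-06), and PDGFB was lower at PO, by at least 3.67-fold (adjusted p = 4.79e-07). Of the 7 ligands, 3, 1 and 1 were higher and 3, 3 and 1 lower in GC at ED, LD and PO. Of all probes 14.4, 12.2 and 21.1% were higher and 21.1, 19.9 and 28.5% lower. Over the alternatives 2 to 3, 0 to 2 and 0 to 3 of the ligands were higher in GC at ED, LD and PO. In the same order 1 to 3, 0 to 3 and 0 to 1 were lower.

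The class 3 semaphorins and plexins, families that include other binding partners of neuropilins, were read in the same way. Whether each listed gene's product binds a neuropilin was not tested. In GC from ED to PO, 0 of 9 tested were higher and 3 lower, where 21.5% of all probes were lower, with a median of -1.04 beside 0.09 over all probes. SEMA3E had a log2 difference of -3.70, or 13.0-fold lower (limma adjusted p = 0.000614), SEMA3C of -2.95, or 7.72-fold lower (adjusted p = 0.000518), and PLXNA3 of -1.38 (adjusted p = 0.00447). These are secreted guidance factors and a plexin that relays semaphorin signals. NRP1 thus rose in the samples in which SEMA3C and SEMA3E fell.

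In TW 4 of 10 were higher at PO than at ED and none lower, where 15% of all probes were higher, and SEMA3C was 1.62 higher at PO than at LD (limma adjusted p = 0.017). The TW count was between 0 and 4 over the alternative settings. The difference between layers was tested: for PO against ED, 0 of 12 interactions were above 0 and called and 5 were below. Among all probes 29.8% were called in either direction. The 5 included SEMA3C at -4.31 (limma adjusted p = 8.99e-05), SEMA3E at -3.33 (adjusted p = 0.00469), PLXNA1 at -2.04 (adjusted p = 0.005) and SEMA3F at -2.21 (adjusted p = 0.0195). The count of 5 was 3 to 6 over the alternatives.

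Genes that relay or answer the VEGF signal were read from a list of 14 on the array. In GC, 8 of 11 tested were higher and 0 lower at PO against ED (5 to 8 higher over the alternatives), where 23.5% of all probes were higher, with a median of 0.98 beside 0.09 over all probes. RCAN1, a calcineurin regulator induced by VEGF in endothelial cells, was 5.39 higher, or 42.0-fold (limma adjusted p = 0.00064). SHB, an adaptor of KDR, was 2.76 higher (adjusted p = 0.00037), HSPB1, a heat shock protein downstream of p38 kinase, 1.96 (adjusted p = 0.00158), and MAPKAPK2, the kinase that acts on it, 0.94 (adjusted p = 0.00861).

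In TW, 5 of 14 were higher and 0 lower at PO against ED (3 to 5 higher over the alternatives), where 15% of all probes were higher, among them NOS3, the endothelial nitric oxide synthase, by 2.33 (limma adjusted p = 0.00432), RCAN1 by 1.95 (adjusted p = 0.00342), SHB by 1.79 (adjusted p = 0.00328) and MAPKAPK2 by 1.40 (adjusted p = 0.00142). At PO against LD 7 of 14 were higher in TW, where 9.6% of all probes were, and the count of 7 was 1 to 7 over the alternatives. Endothelial and leukocyte markers were higher in TW PO too, and the part of those cells was not tested.

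VEGFA is a textbook target of hypoxia-inducible factors, so their regulators and other hypoxia-induced genes were read beside it. In GC from ED to PO, 5 of 11 hypoxia-induced genes were higher and 0 lower, where 23.5% and 21.5% of all probes were. Their median was 1.33 beside 0.09 over all probes, and 4 to 7 were higher over the alternatives. VEGFA, at 0.44, was not called in that comparison. ADM, the vessel-relaxing peptide adrenomedullin, was 4.88 higher, or 29.4-fold (limma adjusted p = 0.000623), ANKRD37 2.02 (adjusted p = 0.0204), LDHA, a lactate dehydrogenase subunit, 1.72 (adjusted p = 0.0187) and NDRG1 1.55 (adjusted p = 0.0118). Of 7 genes that make up or control the factors, 4 were higher in GC at PO than at ED, where 23.5% of all probes were. Among them EGLN3, an oxygen-sensing hydroxylase, was higher by 4.45 (limma adjusted p = 0.00303), although 1 of 5 GC ED arrays was well above background.

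Of the same 7 genes, 5 were higher in TW at PO than at ED, where 15% of all probes were. HIF1A, the oxygen-regulated subunit, was 0.87 higher (limma adjusted p = 0.00844) and EPAS1, its endothelial relative, 1.08 higher (adjusted p = 0.0113). Both counts depended on the setting, at 1 to 6 in GC and 1 to 5 in TW. Between layers, 7 of 11 hypoxia-induced genes were higher in GC at each of ED, LD and PO, where 14.4, 12.2 and 21.1% of all probes were higher, and 1, 0 and 1 were lower. At PO these included ANKRD37 by 4.42 (adjusted p = 2.22e-08), BNIP3, a mitochondrial protein, by 3.65 (adjusted p = 1.44e-07), PDK1, which restrains pyruvate use, by 3.50 (adjusted p = 1.5e-06) and PGK1, a glycolytic kinase, by 1.82 (adjusted p = 7.93e-07). Over the alternatives the higher counts were 6 to 9, 6 to 8 and 7 to 10 at ED, LD and PO.

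**Figure D5:**
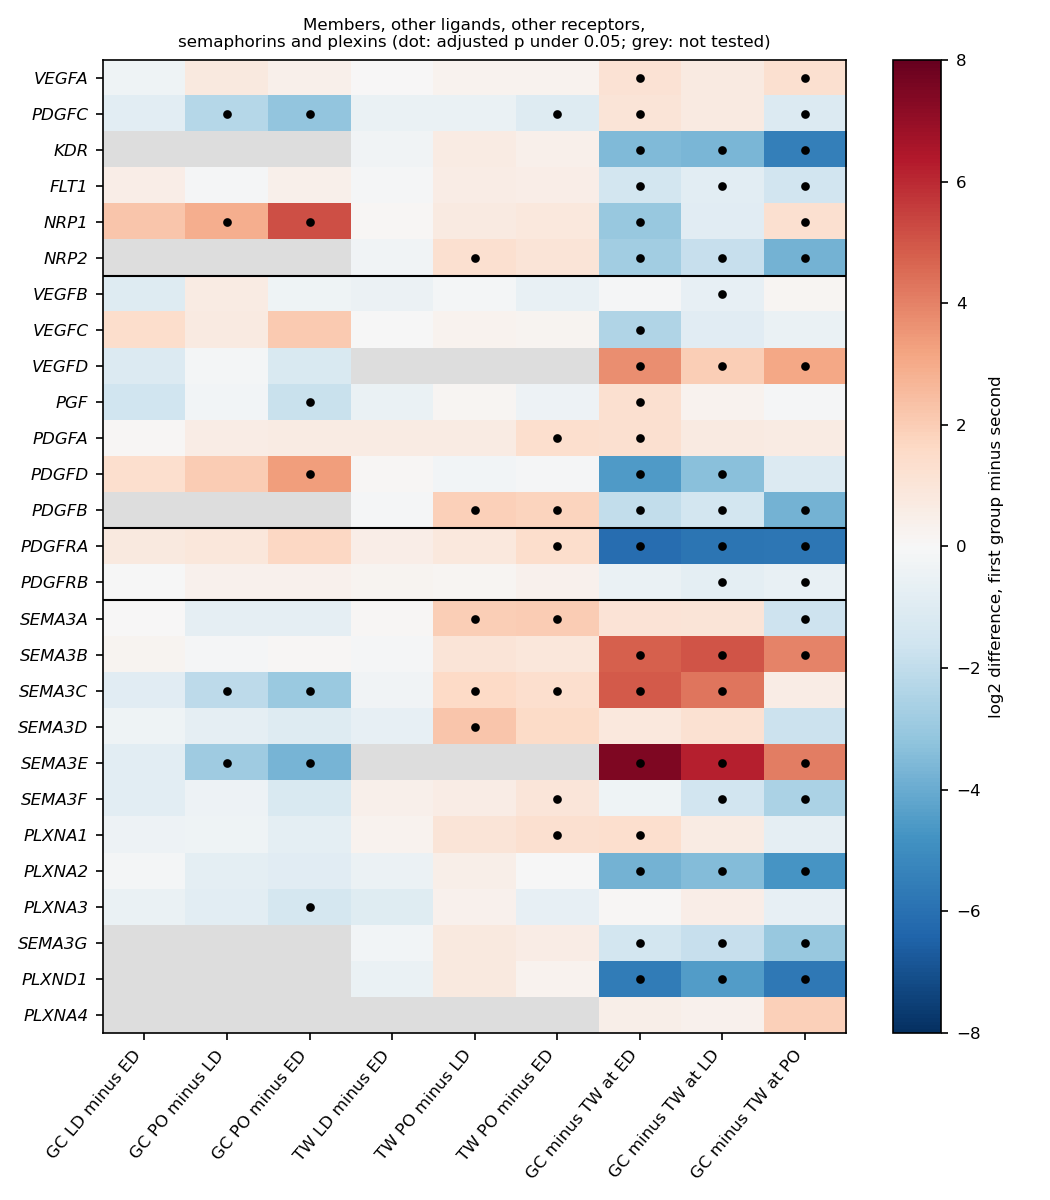
Log2 differences of the 6 genes, the other ligands and receptors, and the semaphorins and plexins in 9 comparisons: stages in GC, stages in TW, and GC minus TW at each stage. A dot marks an adjusted p under 0.05 and grey was not tested; where a group is at background the colour is not an exact size. NRP1 is high and SEMA3C and SEMA3E low in GC at PO, and PDGFRA is lower in GC at every stage.

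The genes most like each member within a layer were found by Pearson's r of log2 levels over the arrays of that layer (15 GC or 19 TW), among genes well above background on all of them: 6839 in GC and 7362 in TW. The arrays share stages and scaling, so the values are descriptions. NRP1 in GC was nearest to DUSP1 (r = 0.987), a phosphatase induced early in many responses, YRDC (0.974) and DPH2 (0.973). PDGFC in GC was nearest to ETV6 (0.959), SNAP91 (0.958) and EHBP1 (0.947), and VEGFA in GC to IQGAP2 (0.831), MIF (0.803) and HCFC1R1 (0.803). VEGFA in GC thus had no neighbour as close as the other 2.

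In TW, FLT1 was nearest to TIMP3 (r = 0.921), a protease inhibitor that also binds KDR, PROSER2 (0.917) and DLL4 (0.912), a Notch ligand of endothelial tip cells. KDR was nearest to PRSS23 (0.899), TIMP3 (0.872) and ARHGAP29 (0.860). Both receptors thus had TIMP3 among their 3 nearest genes. NRP1 in TW was nearest to MCAM (0.908), which is in the smooth muscle and pericyte list, GNGT2 (0.903) and SFRP1 (0.900), a Wnt antagonist. PDGFC in TW was nearest to RAB34 (0.935), TCEAL4 (0.918) and ASH2L (0.905), and VEGFA in TW to HIP1 (0.795), RGS16 (0.785) and DUSP6 (0.781), a MAP kinase phosphatase.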

How the data were processed

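Per the labels' protocols, TRIzol RNA with an integrity number above 7.0 was amplified from oligo(dT) primers (500 ng of RNA, MessageAmp aRNA) and labelled with Cy3, a 3'-weighted method that favours probes near the transcript's end. The deposited scanner files hold spot intensity as processed by Agilent Feature Extraction (9.5.3.1 per the file headers, 9.1 per the submitters' processing notes), with local background subtracted. The deposited value table holds log2 values; set against the scanner files it equalled the quantile-normalized log2 mean signal to within 0.0329, with no background subtraction, and it served as an alternative.

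For each array, log2 of the processed signal minus the array's 75th percentile over non-control spots was computed. That percentile was 785 to 2062, and 64.3 to 82.5% of spots were well above background. Outlier-flagged spots were left out, saturated ones kept, and 43803 spots averaged to 43603 probes. A probe entered a fit if well above background on at least 5 of its arrays. Fits used limma 3.58.1 in R 4.3.3 (lmFit, eBayes), with Benjamini-Hochberg adjustment over all probes of the fit: 32479 for stages in the 15 GC arrays, 35018 for stages in the 19 TW arrays, and 35916 for layers and interactions in all 34. An "at least" fold sets the bright group's mean against, per array, the higher of the dim probe's signal and the lowest signal well above background. On simulated data, 98% of probes changed by 5 on the log2 scale, 52% of those changed by 2 and 18% of those changed by 1 were recovered for GC PO against ED (32615 probes). There, noise was independent between arrays and only 50 probes were changed by each size, while 14585 probes were called in the data. The adjusted p was thus stricter in the simulation, and these shares do not give the recovery in the data.

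Probes were named from the scanner files and a RefSeq gene table (TB-T2T assembly, names only), which gave 21905 probes a symbol. Members and gene lists were chosen with earlier results of these data known. The text names all members, all other VEGF and PDGF ligands and receptors with a call that it describes, up to 4 called genes of each further list with the smallest adjusted p in a comparison, and the 3 genes most like each member well above background throughout a layer. Alternatives were other scalings and background corrections, the deposited table, the low-signal filter, 1 feature per gene name, slide as a block, all arrays in 1 fit, the noisy slide out, and each array out in turn; leaving out GC LD 1, TW ED 3 and TW ED 5 together was added after the data were seen.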

Additional observations from a re-analysis of the deposited data

Results flagged for a closer look

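In groups of 5 or 9 arrays, 3 of 36 gene and group combinations had an array far from the others by Dixon's test, where chance alone gives about 1 in 20. VEGFA on GC ED 5 was -2.78, below the other GC ED arrays. NRP2 on GC ED 1 was -7.04, above its group, and on GC LD 4 -9.19, below its group, and neither NRP2 value was well above background.

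The stage change differed between GC and TW for 4 genes by the interaction test. For NRP1 the GC change minus the TW change was 4.33 for PO against ED and 2.17 for PO against LD. For PDGFC it was -2.15 and -1.78 in the same comparisons. For KDR it was -1.94 and -1.81, and for NRP2 -1.95 for PO against LD, with the GC arrays of both genes at or near background. The KDR values were -0.61 (adjusted p = 0.429) and -0.13 (adjusted p = 0.885) with normexp and -0.48 (adjusted p = 0.208) and -0.60 (adjusted p = 0.115) in the deposited table, by limma. The NRP2 value was 0.16 with normexp (adjusted p = 0.87), and it was not called in the deposited table (adjusted p = 0.277) or with quantile scaling (adjusted p = 0.104). The PDGFC value for PO against LD was not called in the deposited table (adjusted p = 0.0505).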

How the results depend on the processing

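Background correction was the choice that moved the members most. With normexp and an offset of 50, NRP2 differed by -0.19 for TW PO minus LD and by 0.33 for GC minus TW at ED, FLT1 by 0.15 for GC minus TW at ED, and the NRP2 interaction for PO against LD was 0.16, all of the other sign and none called. Its counts of member genes called were 2, 1 and 3 for GC against TW at ED, LD and PO, against 6, 3 and 6. For TW PO against LD it called 0, against 1, and for the PO against LD interaction 2, against 4; the deposited table called 1 of those 4.

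The TW PO against LD count of 1 was 0 with quantile scaling, the deposited table or slide as a fixed block, and 2 with median centring or without the noisy slide. The TW PO against ED count of 1 was 0 with all 34 arrays in 1 fit and 2 without the noisy slide. The 34-array fit called 1 member (NRP1) for GC LD against ED, against 0. Leaving out 1 array at a time gave 0 to 1 members for GC LD against ED and for the LD against ED interaction (without GC LD 5, 1 each), 0 to 2 for TW PO against LD (0 without TW PO 3 or 5, 2 without TW PO 2 or TW LD 1, 6 or 9), 1 to 3 for TW PO against ED (3 without TW ED 4, 2 without TW LD 1 or 6), and 2 to 5 for GC against TW at LD (5 without GC LD 3). The cause of these shifts was not tested. No paired analysis was possible because the replicate numbers follow accession order and pair no samples; slide, which joins arrays of different stages, was used as a block instead.

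Calls of single members lost under other settings included PDGFC at PO (GC minus TW -0.31 with median centring, adjusted p = 0.52), FLT1 at LD with quantile scaling (adjusted p = 0.525), and VEGFA at ED without the 3 arrays with raised markers of the other layer (adjusted p = 0.141) by limma. NRP1 and PDGFC for GC PO against ED were called under every alternative run.

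Over all probes, normexp called 3565, 1941 and 4095 for GC PO against LD, TW PO against LD and TW PO against ED, against 5503, 5894 and 9417, and 7283, 6253 and 10957 for GC against TW at ED, LD and PO, against 12754, 11521 and 17792. The 34-array fit called 2276 for GC LD against ED, against 1. Median centring made 27.4 and 32.7% of calls higher in TW PO against LD and ED, against 57.0 and 55.7%. Signal over background limits KDR and NRP2 in GC, whose stages could not be compared.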
